A study of Mus musculus with 6 samples.

Results

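Tubulins are the subunits of microtubules, and the 10 tubulin genes described here are Tuba1a, Tuba1b, Tuba1c, Tuba4a, Tubb2a, Tubb2b, Tubb3, Tubb5, Tubb6 and Tubg1. They were chosen by gene symbol, and every probe that the platform annotation gives one of these symbols was used. This gave 15 probes for 9 of the genes, out of 25697 probes and 16593 named genes on the array. Tuba1c had no probe under its name and has no value here.

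Expression was measured on 6 Illumina BeadChips, each with RNA of 1 culture of hematopoietic stem and progenitor cells from the bone marrow of C57Bl/6 mice. The cells were sorted as L-S+K+, kept for 24 h in medium with fetal calf serum, stem cell factor and GM-CSF, and lysed. The treated group, of 3 cultures, also received 1 mM valproic acid (VPA), a branched fatty acid used against epilepsy that also blocks histone deacetylases, and the 3 control cultures had the growth factors alone. The series describes the replicates as independent and biological, gives no age or sex of the mice and does not say whether animals were pooled. In such bulk samples a change in the mix of cells cannot be told apart from a change of RNA per cell.

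Alpha- and beta-tubulin join as a dimer, and dimers stack end to end into the wall of the microtubule, which carries cargo and forms the mitotic spindle. Vertebrates have several genes for each subunit, whose proteins are nearly identical apart from the acidic tail at the C-terminus, and cells differ in which of them they use. Gamma-tubulin sits in a ring complex at the centrosome, where new microtubules start. New tubulin chains are folded by prefoldin, the chaperonin CCT and a set of tubulin cofactors, and the finished dimer is then altered on its tail by dedicated enzymes.

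With VPA, 0 of the 7 tubulin genes that could be measured passed the test over all genes in either direction. Detected on all 6 arrays were the alpha-tubulins Tuba1a, Tuba1b and Tuba4a, the beta-tubulins Tubb5 (1 of 2 probes), Tubb6 and Tubb2b (1 of 6 probes), and Tubg1. The largest differences were those of Tubb2b, with a log2 change of 0.74 on its brightest probe, and Tuba1a, with -0.71. Without the dim array of VPA replicate 1 they were those of Tubb6, at 0.66, and Tubb2b, at 0.54, with Tuba1a at -0.26. Tubb2a and the neuronal beta-tubulin Tubb3 were detected on 0 of the 6 arrays. Normalized signals are on a log2 scale throughout, and a log2 change is VPA minus control.

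The genes fall into neighbouring groups in the RefSeq annotation. Tuba1b, Tuba1a and Tuba1c follow each other on chromosome 15, Tubb2a and Tubb2b on chromosome 13, and Tubg1 lies next to its near copy Tubg2 on chromosome 11. A promoter was taken from the RefSeq table (GRCm38.p6) for 7 of the 10 genes, of which 4 are shown, 250 bases up to the transcription start. They are those of Tuba1b and Tubb5, whose probes were among the brightest signals and differed little between the groups, of Tuba1a, the neighbour of Tuba1b that was lower on all VPA arrays, and of Tubb3, which was not detected. Each is written 5′ to 3′ on the strand of its gene, and capitals mark the letters CCAAT (the CCAAT box) or GGGCGG (the GC box) on either strand, which do not overlap here.
Tuba1b: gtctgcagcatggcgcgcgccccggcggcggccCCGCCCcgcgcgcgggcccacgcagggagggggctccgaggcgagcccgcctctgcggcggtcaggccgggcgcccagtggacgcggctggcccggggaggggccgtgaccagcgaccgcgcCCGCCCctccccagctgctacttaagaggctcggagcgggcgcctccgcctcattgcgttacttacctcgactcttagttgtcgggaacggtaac
Tuba1a: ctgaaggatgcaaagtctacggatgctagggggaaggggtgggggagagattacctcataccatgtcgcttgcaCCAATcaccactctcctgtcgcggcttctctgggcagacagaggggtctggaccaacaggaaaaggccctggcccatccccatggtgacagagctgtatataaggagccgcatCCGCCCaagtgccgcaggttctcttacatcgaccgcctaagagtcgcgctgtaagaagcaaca
Tubb5: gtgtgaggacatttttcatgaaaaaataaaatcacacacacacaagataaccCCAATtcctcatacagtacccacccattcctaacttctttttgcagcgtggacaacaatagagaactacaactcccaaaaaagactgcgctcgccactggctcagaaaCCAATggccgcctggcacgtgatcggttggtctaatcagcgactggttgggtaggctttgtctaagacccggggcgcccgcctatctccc
Tubb3: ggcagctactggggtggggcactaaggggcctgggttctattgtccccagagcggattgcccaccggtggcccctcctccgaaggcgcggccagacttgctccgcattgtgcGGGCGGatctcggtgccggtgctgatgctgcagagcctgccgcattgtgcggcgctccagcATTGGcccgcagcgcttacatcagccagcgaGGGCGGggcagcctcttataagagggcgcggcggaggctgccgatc

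These stretches lie at chr15:98934391-98934640 (minus strand, Tuba1b), chr15:98953502-98953751 (minus strand, Tuba1a), chr17:35838302-35838551 (minus strand, Tubb5) and chr8:123411303-123411552 (plus strand, Tubb3). The promoter of Tuba1b had 35 CpG dinucleotides and a GC content of 75.6%, that of Tuba1a 11 and 56.8%, that of Tubb5 10 and 49.2% and that of Tubb3 21 and 68.0%. Over 32841 promoters of the table the medians were 6 CpG dinucleotides and 52.4%. The Tuba1b window had 2 GC boxes and 0 CCAAT boxes, that of Tuba1a 1 of each, that of Tubb5 2 CCAAT boxes and 0 GC boxes, and that of Tubb3 2 GC boxes and 1 CCAAT box. A CCAAT box on either strand occurred in 33.9% of all promoters of this length and a GC box in 32.7%. The letters TATAAA were in 0 of these 4 windows and in 12.4% of all promoters. Such matches describe the letters only.

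VPA replicate 1 stood apart from the other arrays. It had 11439 detected probes, that is, with a detection p-value under 0.05, against 10846 to 11097 on the others. The median raw signal of the measured probes was 226 on VPA replicate 1, against 456 to 647 on the other 5 arrays, and was 2.37 times that of the undetected probes, against 3.93 to 4.82 times. VPA replicate 1 correlated across probes with the other VPA arrays at r = 0.947 and 0.957, while pairs of controls reached at least 0.989. The change of each measured tubulin probe and the median of each list of partners are therefore given with and without this dimmer array. Of 14 named genes of early blood progenitors 13 were measured. Mature blood cell markers were measured for 2 of 7 named on the array, Nkg7 and Klrb1c, and fibroblast, stroma and endothelium markers for 3 of 11. Sca-1 and Kit, by which the cells were sorted, were not analysed here. A probe was called measured if detected on at least 3 of the 6 arrays. This held for 11115 probes, with or without a gene name, and 7967 named genes had such a probe. By limma at an adjusted p of 0.05, 272 genes (3.41%) were higher and 25 (0.314%) lower with VPA, and this is the background for the tubulins.

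Tuba1b encodes the alpha-tubulin that most dividing cells use. Its normalized signals were 14.78, 14.81 and 14.83 on the VPA arrays, against 14.68, 14.62 and 14.88 on the control arrays. The groups overlapped, and the VPA values lay within the range of the controls. The log2 change was 0.08 ± 0.14 (SE, n = 3 per group; adjusted p = 0.792 by limma), with a 95% interval of -0.25 to 0.41, or 0.838- to 1.33-fold. The raw signal of the probe was 84.4% to 95.1% of the highest on the array in the VPA group and 86.2% to 95.2% in the control group. The part of this closeness to the top of the scale in the small difference was not tested. Scaling the arrays to a common median instead of quantile normalization gave a log2 change of 0.62 (adjusted p = 0.417), where the median of all genes moved to 0.09. Without VPA replicate 1 the change was 0.09.

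Tubb5, the main beta-tubulin of dividing cells, behaved likewise on its bright probe (ILMN_1227164). Its signals were 14.61, 14.55 and 14.38 with VPA, against 14.67, 14.52 and 14.50 in control. The groups overlapped, and the log2 change of -0.05 ± 0.15 (adjusted p = 0.882 by limma) had a 95% interval of -0.39 to 0.29. Its raw signal reached 56.9% to 78.7% of the array's highest with VPA, against 81.1% to 90.6% in control. The other probe named Tubb5, ILMN_1217584, was detected on 0 of 6 arrays, so the 2 probes of this gene do not give 1 answer. Median scaling turned the sign of the bright probe, to 0.34 (adjusted p = 0.601), and without VPA replicate 1 it was at -0.10.

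Tuba1a, the alpha-tubulin of growing neurons and a near copy of Tuba1b, was lower on each VPA array than on each control array. The normalized signals were 10.61, 11.91 and 11.99 with VPA, against 12.24, 12.22 and 12.17 in control. The raw signals were 789.7, 3919 and 3802 with VPA, against 6624, 5037 and 5688 in control. The lowest of them by far is that of VPA replicate 1, the dim array, while the 3 controls lay close together. The log2 change was -0.71 ± 0.35, a level 1.63-fold lower with VPA, and did not pass (adjusted p = 0.363 by limma, 95% interval -1.53 to 0.12). Without VPA replicate 1 it was -0.26 ± 0.11 (adjusted p = 0.205, 95% interval -0.52 to 0.004), a shift by over 1.5 times, in the same direction.

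Tuba4a, whose protein lacks the C-terminal tyrosine that most other alpha-tubulins carry, was dimmer. It had signals of 7.73, 8.52 and 8.33 with VPA, against 8.10, 8.42 and 8.26 in control. VPA replicate 1 gave the lowest and VPA replicate 2 the highest value, so the VPA group enclosed the controls. The log2 change of -0.06 ± 0.23 (adjusted p = 0.898 by limma) had a 95% interval of -0.60 to 0.47, and without VPA replicate 1 its sign turned, at 0.17 ± 0.14 (adjusted p = 0.508).

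**Figure D1:**
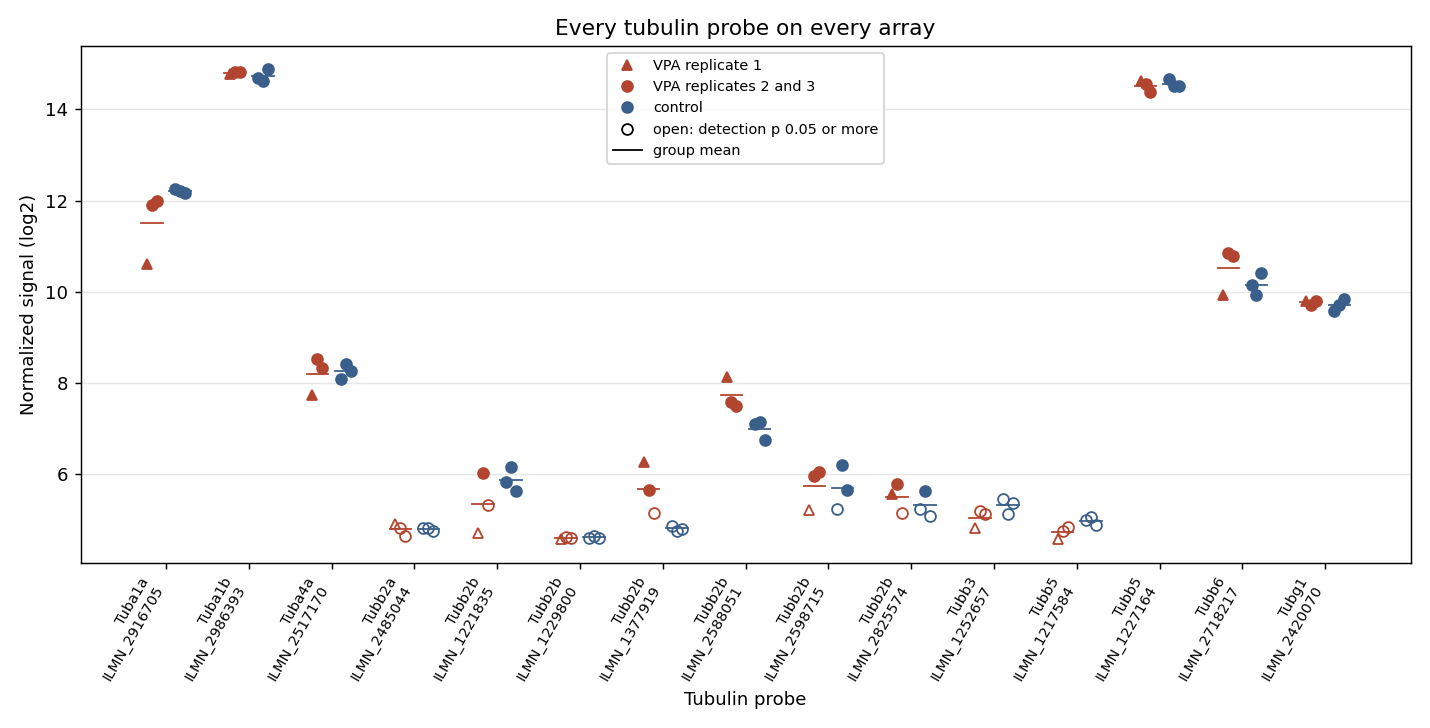
Normalized signal (log2) of each of the 15 tubulin probes on each array, VPA in red left of control in blue, with VPA replicate 1 as a triangle, group means as lines, and open symbols where the detection p-value was 0.05 or more. Tuba1b and the bright Tubb5 probe lie above 14 in both groups, the 3 VPA values of Tuba1a lie under its controls with VPA replicate 1 lowest at 10.61, and the probes of Tubb2a, Tubb3 and the second Tubb5 probe are open throughout.

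Tubb6, a beta-tubulin with a broad tissue range, had signals of 9.93, 10.85 and 10.78 with VPA, against 10.14, 9.92 and 10.40 in control. VPA replicates 2 and 3 lay above all controls and VPA replicate 1 among them. The log2 change was 0.37 ± 0.27 (adjusted p = 0.527 by limma) with a 95% interval of -0.27 to 1.01. Without VPA replicate 1 it was 0.66 ± 0.16, or 1.58-fold, with an adjusted p of 0.0529 by limma, still not past the threshold.

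Tubg1, the gamma-tubulin that starts new microtubules, had signals of 9.79, 9.72 and 9.80 with VPA, against 9.57, 9.70 and 9.84 in control. The groups overlapped, with an SD of 0.05 in the VPA group and 0.13 in the control group. Its log2 change was 0.07 ± 0.14 (adjusted p = 0.822 by limma) and its 95% interval, -0.27 to 0.41, was, with those of Tuba1b and the bright Tubb5 probe, among the 3 narrowest. VPA replicate 1 lay between the other VPA arrays for this gene, and without it the change was 0.06.

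Tubb2b, a beta-tubulin best known from the developing brain, has 6 probes under its name, and they did not give 1 answer. The probe with the highest signal, ILMN_2588051, had values of 8.14, 7.58 and 7.49 with VPA, against 7.10, 7.14 and 6.75 in control. All VPA arrays were above all controls, with VPA replicate 1 the highest. Before normalization the groups overlapped and that dim array was the lowest, with raw signals of 188.8, 290.4 and 278.4 with VPA, against 309.9, 243.6 and 234.7 in control. Its log2 change was 0.74 ± 0.22, or 1.67-fold, with an unadjusted p of 0.0103 and an adjusted p of 0.141 by limma, and a 95% interval of 0.23 to 1.25. Without VPA replicate 1 it was 0.54 ± 0.15 (adjusted p = 0.0791). It was smaller by over 1.5 times on the authors' deposited log2 values, at 0.38 (adjusted p = 0.182), and without background correction, at 0.45 (adjusted p = 0.159).

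On the probe ILMN_1221835 the same gene had 4.71, 6.02 and 5.32 with VPA, against 5.83, 6.15 and 5.64 in control. It was detected on 1 of 3 VPA arrays and on all control arrays, and its log2 change was -0.53 ± 0.33 (adjusted p = 0.450 by limma) and, once VPA replicate 1 was left out, -0.20. It was -0.21 on the deposited log2 values and -0.23 without background correction. ILMN_2598715 had a log2 change of 0.05 ± 0.31, which was 0.31 without VPA replicate 1, and ILMN_2825574 one of 0.18 ± 0.23, which was 0.14 without that array, both with overlapping groups.

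The remaining probes of Tubb2b fell outside the test. ILMN_1229800 was detected on 0 of 6 arrays. ILMN_1377919 was detected on 2 of 3 VPA arrays and on 0 control arrays, with signals of 6.26, 5.65 and 5.14 with VPA, against 4.87, 4.76 and 4.81 in control. The highest of these is on the dim array, and no fold is given. As a mean over its 4 measured probes the log2 change of Tubb2b was 0.11 (adjusted p = 0.769 by limma). Coding sequences of tubulin genes are so alike that a probe may bind RNA of a near copy, and the probe sequences were not used here, so which transcripts each probe reads was not tested.

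Tubb2a, the neighbour of Tubb2b, had signals of 4.90, 4.82 and 4.65 with VPA, against 4.82, 4.82 and 4.75 in control, with detection p-values of at least 0.325. Tubb3 had 4.83, 5.18 and 5.12 with VPA, against 5.45, 5.13 and 5.37 in control. Its lowest detection p-value was 0.065, on control replicate 1, and the controls held the 2 highest signals. Both probes lie at background in both groups, so no fold is given and no difference was detectable at this signal.

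**Figure D2:**
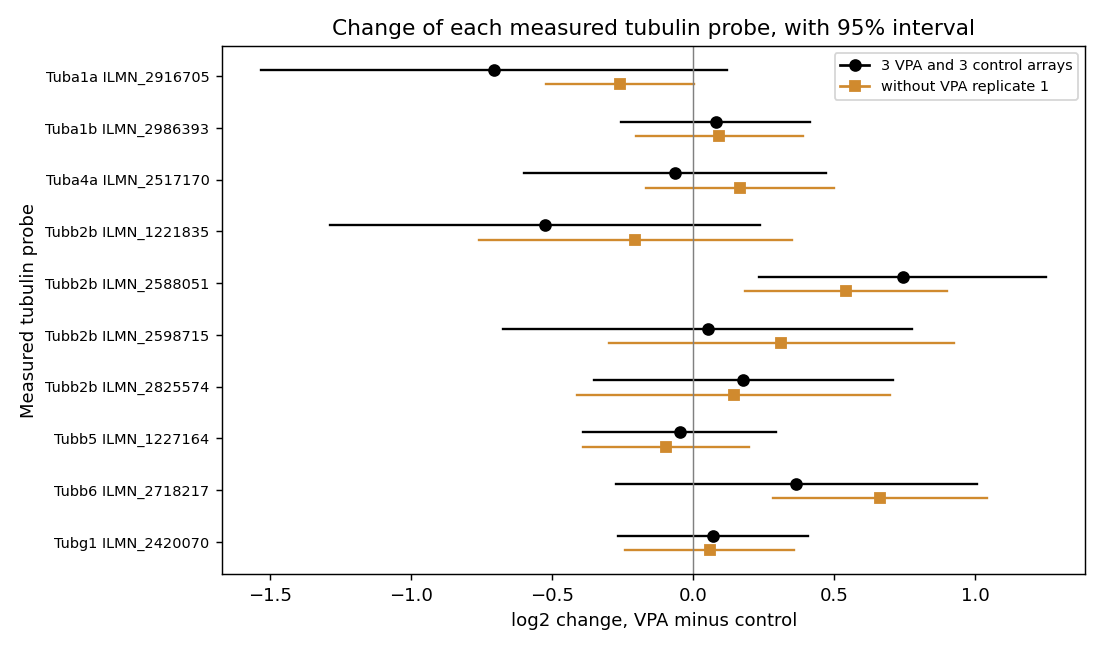
log2 change (VPA minus control) of each of the 10 measured tubulin probes with its 95% interval from limma, black with all 6 arrays and orange without VPA replicate 1. Of the probes shown, ILMN_2588051 of Tubb2b (0.74 in black) has an interval that leaves out 0 with all arrays, Tubb6 joins it without VPA replicate 1 (0.66), and none passed after adjustment over all probes.

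Taken over the 7 measured tubulin genes, 4 had a log2 change above 0 and 3 below. Their median log2 change was 0.07, against -0.02 over all 7967 genes, and without VPA replicate 1 it was 0.09 against -0.005. The median size of the change, whatever its sign, was 0.08 against 0.23 with all 6 arrays. Tubb6, at 0.66 without VPA replicate 1 against 0.37 with it, shows that these sizes depend on that array. At an unadjusted p under 0.05 by limma 1 was higher (Tubb2b) and 0 lower, where 11.5% of all genes were higher and 5.59% lower. The groups did not overlap for 1 gene upward (Tubb2b) and 1 downward (Tuba1a), against 16.7% and 11.2% of all genes, so 2 of 7 here compares with 27.9%. A two-sided exact permutation test of 3 against 3 arrays gave p = 0.1 for both, the smallest value it can give, and between 0.3 and 0.9 for the other 5 genes. The median SD between replicates was 0.35 for the tubulins and 0.28 for all genes in the VPA group, and 0.13 for both in the control group. Without VPA replicate 1, where 6.20% of all genes were higher and 1.59% lower, again 0 tubulin genes passed.

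By likeness of profile, the genes nearest to the brightest Tubb2b probe over the 6 arrays were Radx, Trim3, Zfp2, Gab3 and Prkcq. Their Pearson correlations with it were 0.996, 0.996, 0.994, 0.993 and 0.992, and their log2 changes lay between 0.64 and 1.26, none past the threshold. Over these 6 arrays, 579 of 7966 genes (7.27%) had a correlation over 0.9 with this probe. A correlation over 0.99 was rarer, with 7 genes. All points share the arrays and the group difference.

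Other alpha- and beta-tubulins gave a similar account. Of 6 named on the array 5 were measured, 0 passed in either direction and their log2 changes had a median of -0.07, which leaving out VPA replicate 1 moved to 0.03. Tubb4a, a beta-tubulin abundant in the brain, had signals of 7.12, 6.73 and 6.92 with VPA, against 5.85, 6.25 and 6.42 in control. All VPA values were above all controls, with a log2 change of 0.75 ± 0.20 (unadjusted p = 0.00623, adjusted p = 0.107 by limma) and 0.65 without VPA replicate 1. Tuba3b had a log2 change of -0.43 ± 0.39 (adjusted p = 0.597), which was 0.03 without VPA replicate 1. Tubb1, the beta-tubulin of megakaryocytes and platelets, was detected on 0 arrays. Of the 9 named markers of that lineage, Tubb1 among them, 6 were measured, and Ppbp and Gp1bb were not measured either.

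In the gamma-tubulin ring complex and the rarer tubulins 10 of 13 named genes were measured and 0 passed, with a median log2 change of -0.09, or -0.15 without VPA replicate 1. Tubgcp4, a subunit of the ring, came nearest. Its signals were 6.11, 6.22 and 6.02 with VPA, against 7.27, 6.87 and 6.75 in control, and the groups were well apart. The level was 1.80-fold lower with VPA (log2 change -0.84 ± 0.18, adjusted p = 0.0539 by limma), and it passed the threshold without VPA replicate 1, at -0.84 with an adjusted p of 0.0348. Tubd1, the delta-tubulin of centrioles, had a log2 change of -0.52 ± 0.29 (adjusted p = 0.414), which was -0.17 without that array, and -0.13 on its second probe.

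Of 22 named tubulin folding genes 18 were measured and 0 passed. The median log2 change was -0.09, with all arrays and without VPA replicate 1. At an unadjusted p under 0.05 by limma 2 genes were lower (Cct3 and Tcp1) and 0 higher, where 5.59% of all genes were lower and 11.5% higher. The groups did not overlap for 3 genes downward (these and Cct8) and 1 upward (Ttc5), against 11.2% and 16.7% of all genes. The CCT subunits Cct2 and Cct8 had the largest changes, -0.86 ± 0.48 (adjusted p = 0.404) and -0.60 ± 0.37 (adjusted p = 0.445). Without VPA replicate 1 these were -0.32 and -0.13. All 8 measured CCT subunits, a subset looked at after the values were seen, had log2 changes below 0, from -0.86 to -0.13, where 52.0% of all genes did. The median of the 8 was -0.45, or -0.25 without VPA replicate 1, where 7 of the 8 stayed below 0 and Cct7 was at 0.008. The cofactors Tbca, Tbcb, Tbcd and Tbcel and their partner Arl2 had log2 changes of 0.03 to 0.17, with overlapping groups, and Tbca was at -0.10 without VPA replicate 1. Of the prefoldins, Vbp1 was at -0.42 and Pfdn4 at -0.04, and Pfdn2 at 0.13, which without that array were -0.07, -0.16 and -0.16.

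Enzymes that modify tubulin were mostly out of reach, with 7 of 17 named genes measured, 0 past the threshold, and a median log2 change of -0.02, or 0.12 without VPA replicate 1. Ttll1, the catalytic subunit of a polyglutamylase, had signals of 7.16, 6.71 and 6.08 with VPA, against 5.62, 6.14 and 5.65 in control, where the lowest VPA and the highest control value overlapped. Its log2 change was 0.85 ± 0.29 (adjusted p = 0.197 by limma), 0.59 without VPA replicate 1, and 0.73 on a second probe. Agbl5, a carboxypeptidase that acts on tubulin, was detected on 2 of 3 VPA arrays, with its lowest value, 4.68, on VPA replicate 1. It differed by -0.85 ± 0.41 (adjusted p = 0.350), by -0.33 once VPA replicate 1 was left out, and by -0.40 on a second probe. Hdac6, the deacetylase that acts on alpha-tubulin, had a log2 change of -0.05 ± 0.19 (adjusted p = 0.901), of 0.09 without VPA replicate 1, and of -0.67 ± 0.61 on a second probe. Sirt2, another one, had 0.08 ± 0.26 (adjusted p = 0.892), or 0.33 without that array, and both are named here for their role and not by size.

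Among proteins that bind or stabilise microtubules 16 of 33 named genes were measured and 0 passed, with a median log2 change of 0.04, or -0.009 without VPA replicate 1. Map1lc3a, which takes part in autophagy and was first found with microtubules, had signals of 7.75, 7.15 and 7.19 with VPA, against 6.41, 6.43 and 6.62 in control. All VPA values were higher, with a log2 change of 0.88 ± 0.20 (adjusted p = 0.0677 by limma). It rose past the threshold without VPA replicate 1, by 0.68 with an adjusted p of 0.0199. Its relative Map1lc3b differed by -0.54 ± 0.57 (adjusted p = 0.645), and by 0.19 without that array. Of the genes not measured, the stathmins Stmn2, Stmn3 and Stmn4, and Map4, Map6, Clip2, Dclk1, Tppp, Tppp3, Camsap2 and Fign were detected on 0 arrays, and Map1b, Dcx, Mapre3, Map2, Mapt and Camsap3 on 1 or 2.

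**Figure D3:**
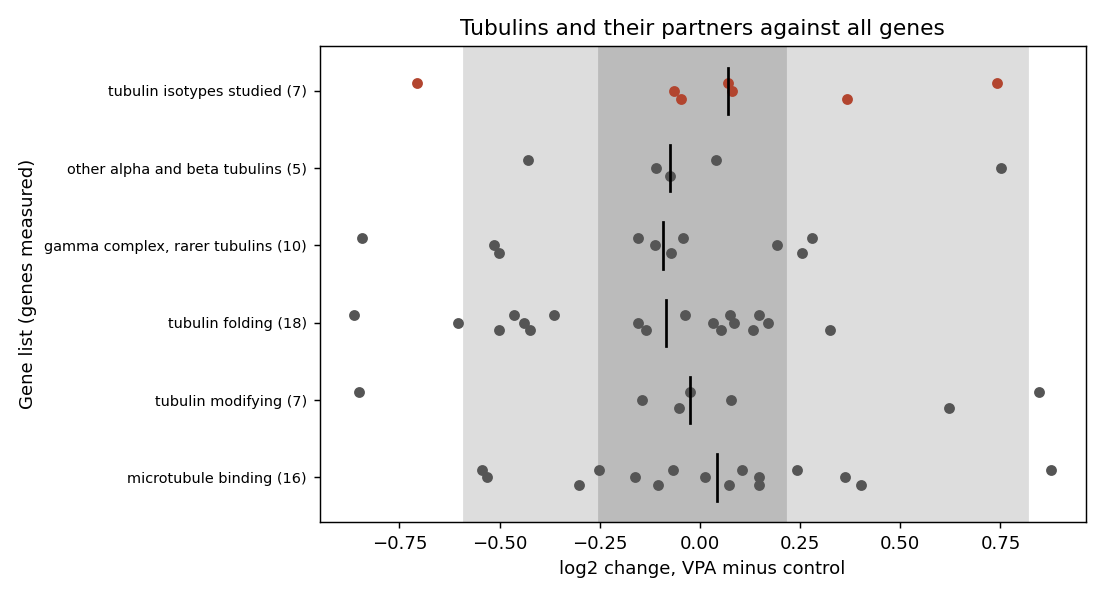
log2 change (VPA minus control) of each measured gene, as a point, in the tubulin isotypes (red) and in the 5 lists of their partners, with the median of each list as a line. Over all 7967 genes the dark band runs from percentile 25 to 75 (-0.25 to 0.22) and the light band from percentile 5 to 95 (-0.59 to 0.82), and every list has its median inside the dark band.

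Neuronal genes as a whole were little expressed beside the undetected Tubb3. Of 15 markers 3 were measured, Eno2, Nefh and Syp, and 10 were detected on 0 arrays, Rbfox3, Snap25 and Syt1 among them. Eno2, the neuronal enolase, had a detected signal on each VPA array and on 0 control arrays, at a level at least 1.96-fold higher with VPA. It met the filter through the VPA arrays alone, so its adjusted p of 0.00392 by limma is against control values at background. Nefh, a neurofilament chain, differed by 0.27 ± 0.27 on the log2 scale (adjusted p = 0.640), and by 0.58 once VPA replicate 1 was left out (adjusted p = 0.0470). The summed background-corrected signal of the 3 was 429 to 734 with VPA, against 408 to 459 in control. Their part in the values of Tubb2b and Tubb4a was not tested.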

How the data were processed

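The deposited table holds, per the file headers, a raw signal intensity per array for 25697 probes, with its detection p-value. A second table the authors deposited holds log2 values that followed the order of the raw signals on every array (Spearman at least 0.999996) with a common median of 6.94. How they were normalized is not given in the sources used here, and they served as an alternative. The submitters' processing notes name GenomeStudio.

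The raw signals were corrected and normalized by neqc of limma 3.58.1 in R 4.3.3 (background from the detection p-values, offset 16, quantile normalization, log2), which widens changes of dim probes. The test of VPA against control used lmFit and eBayes on the 11115 measured probes together, with Benjamini-Hochberg adjustment. A gene is shown by its measured probe with the highest mean. Names came from the platform annotation, where 23978 probes have 1 symbol, 0 have several and 1719 have none. The 15 tubulin probes all matched RefSeq by gene identifier, with 0 symbols changed. The procedure was tested on simulated arrays.

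Besides the members, the 2 genes with the largest change are named from each partner list in which none passed. Members and lists were chosen with earlier results of these data known. The replicate numbers were not used as pairs. With 6 arrays, their number limits the precision, and 2 groups of 3 cannot go below p = 0.1 in an exact test. Alternatives were other background corrections, scalings, filters, variance models, a replicate block, probe means and each array left out.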

Additional observations from a re-analysis of the deposited data

How the results depend on the processing

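The count of tubulin genes past the threshold was 0 in each direction in all 17 alternatives but one. With array weights 2 were higher, Tubb2b (log2 change 0.57, adjusted p = 0.00424) and Tubb6 (0.72, adjusted p = 0.00270), and over all genes 1365 were higher and 1128 lower. That fit gave VPA replicate 2 a weight of 12.96 and VPA replicate 1 one of 0.09, and its iteration stopped before it converged. Array weights also put 1 other tubulin higher, 3 genes of the gamma complex lower, 1 folding gene higher and 4 lower, 2 modifying enzymes higher and 1 lower, and 5 microtubule-binding genes higher and 1 lower. Tubgcp4 made 1 gene lower with a detection p-value under 0.01, with probe means and with 5 arrays normalized without VPA replicate 1, and Map1lc3a 1 gene higher with median scaling and with those 5 arrays. Leaving out 1 array at a time gave 54 to 494 genes higher and 5 to 127 lower over all genes, 0 to 1 lower in the gamma complex and 0 to 1 higher among microtubule-binding genes, with the highest counts without VPA replicate 1, 54 without control replicate 1, and 5 without control replicate 1 or 3. With 5 arrays normalized, 102 genes were lower over all. Signs turned for 4 probes. Tuba4a was at 0.23 with array weights, 0.17 without VPA replicate 1, 0.17 with 5 arrays normalized and 0.015 without control replicate 2, over -0.23 to 0.17 with 1 array left out. The Tubb5 probe was at 0.34 with median scaling, 0.006 without control replicate 1 and 0.021 without VPA replicate 3, over a range of -0.10 to 0.021 with 1 array left out. The Tubb2b probe ILMN_1221835 was at 0.073 with array weights, against -0.53 as reported, and ILMN_2598715 at -0.18 without control replicate 1, -0.06 without VPA replicate 2 and -0.10 without VPA replicate 3, over a range of -0.18 to 0.31. Median scaling moved Tuba1b to 0.62 and the median of all genes to 0.09. The cause was not tested. With the replicate block 178 genes were higher and 13 lower and 0 tubulins passed. Same-numbered arrays deviated together at r = 0.13, -0.06 and 0.05, and differently numbered ones at -0.11 to 0.15. As deviations from a mean of 3 arrays are tied to each other, these values cannot decide whether the numbers pair the samples.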
